A study of Mus musculus with 6 samples.

Results

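Gfap, Aqp4, Aldh1l1, Aldoc, S100b, Slc4a4 and Fgfr3 are 7 genes that mark astrocytes, the glial cells that take up glutamate and potassium, contact blood vessels and supply neurons with metabolites. They were taken by symbol from the 25896 gene symbols in the files, each through the transcript that had the most counts on average in the 6 libraries, and all 7 were found and passed the filter on low counts. The libraries hold hippocampal mRNA of adult male C57BL/6 mice, 3 months old, 3 weeks after tamoxifen. All of the mice, controls included, were Dicer1 flox/flox and received tamoxifen. The transgene CaMKIIa-creERT2 was present only in Dicer1-ifKO mice; it encodes a tamoxifen-dependent Cre recombinase under a promoter used to reach forebrain excitatory neurons, and WT mice are listed as wild-type for this second genotype. Each genotype had 3 libraries, and each library pooled equal amounts of RNA from 3 mice. Since WT mice lack the transgene, loss of Dicer1, the ribonuclease that releases mature microRNAs, cannot be told apart from effects of active recombinase. The comparison asks whether mRNAs of cells that this promoter is not meant to reach differ after the neuronal deletion.

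In the adult hippocampus, astrocytes tile the tissue with fine processes around synapses and end on capillaries in endfeet. GFAP is the intermediate filament of their main processes and increases when they become reactive, and S100b is a calcium-binding protein of the cytoplasm. Aquaporin-4 is the water channel of the endfeet, Slc4a4 encodes the sodium bicarbonate cotransporter NBCe1, and Fgfr3 a receptor for fibroblast growth factors. Aldh1l1 is a folate enzyme and Aldoc the brain aldolase of glycolysis. None of the 7 is confined to astrocytes, and in tissue RNA fewer cells of a type and less RNA per cell cannot be told apart.

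Totals over the representative transcripts of all genes lay between 11832791 in WT replicate 1 and 20677846 in Dicer1-ifKO replicate 3, so that 3 counts correspond to 0.146 to 0.255 CPM (read counts scaled to library size after TMM normalization). Dicer1 itself was at 55.6, 62.0 and 55.8 CPM in the WT libraries and at 58.2, 62.9 and 58.0 CPM in the Dicer1-ifKO libraries, a log2 fold change of 0.04 (SE 0.06); the files hold 1 Dicer1 transcript that spans the gene, and its count does not separate the floxed part, so this value does not check the deletion. WT replicate 1, the shallowest library, had a score of -12.7 on the first principal component (35.8% of the variance), where the other libraries scored -1.83 to 6.76, and its deviations ran against transcript length (Spearman's rho -0.262 over 16060 genes, against -0.116 to 0.139 in the other libraries; genes are not independent replicates).

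None of the 7 astrocyte genes passed the test between Dicer1-ifKO and WT. In the quasi-likelihood F-test of edgeR, Benjamini-Hochberg adjusted over 17405 genes, 28 genes, or 0.161%, were called at an adjusted p below 0.05, and the members' adjusted p lay between 0.254 and 0.973. Their median log2 fold change was -0.02, beside -0.0032 over all genes tested. Aqp4 was the member with the lowest value, at -0.16, and Fgfr3 the one with the highest, at 0.13. These 2 had unadjusted p-values below 0.05, as had 10.4% of all genes, and they were also the 2 members whose libraries did not overlap between the genotypes. Groups did not overlap, with Dicer1-ifKO lower, in 8.07% of all genes (1 of the 7 members), and, with Dicer1-ifKO higher, in 7.99% (1 of the 7). The members are abundant: each is among the 6674 genes with a mean log2 CPM of 5 or more, where the median SE of a log2 fold change was 0.06 and 23 genes were called.

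**Figure D1:**
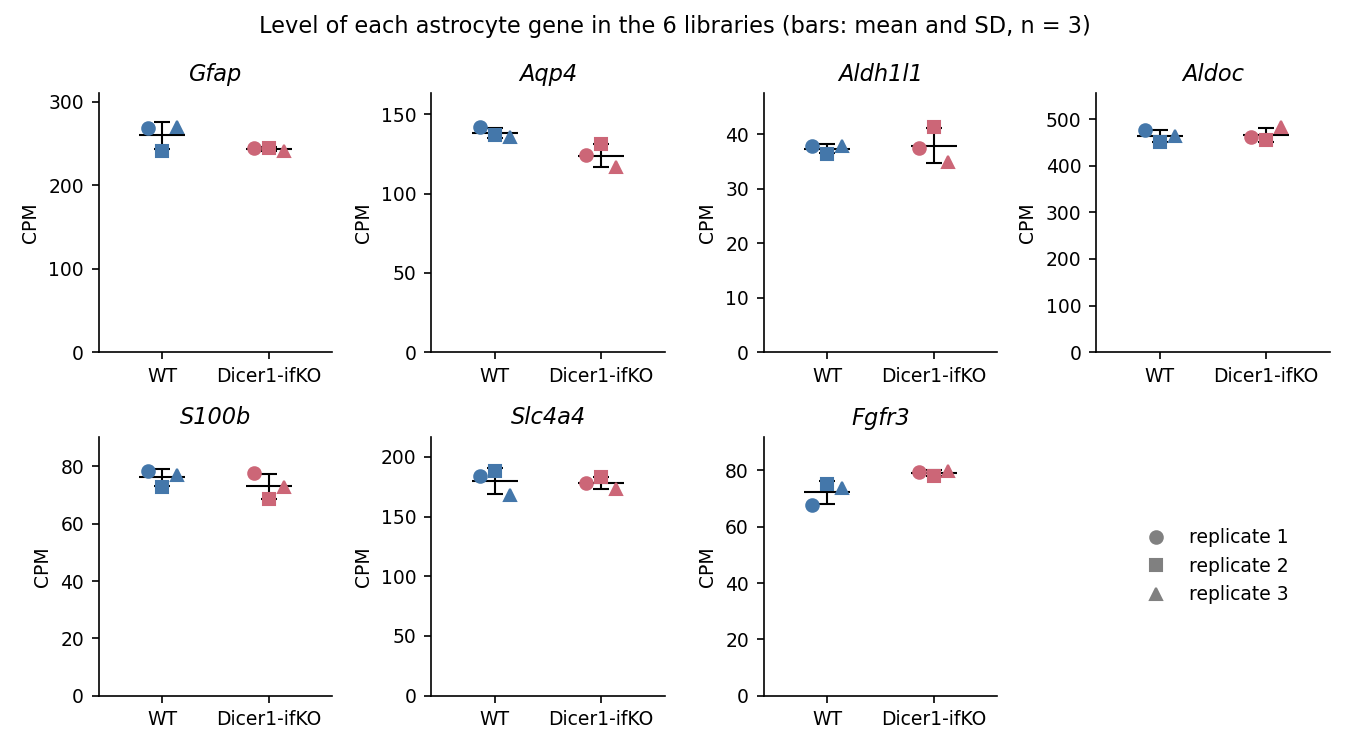
CPM (vertical axes from 0) of the 7 astrocyte genes in each library, with the 3 WT libraries in blue and the 3 Dicer1-ifKO libraries in red; marker shapes give the replicate number and black bars the mean and SD of 3 libraries. The groups are separate for Aqp4 (116.6 to 131 CPM in Dicer1-ifKO, 136 to 142 in WT) and Fgfr3 (78.0 to 79.9 against 67.6 to 75.3) and overlap for the other 5 genes.

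Gfap (Gfap-001, GRCm38 chromosome 11, 102887336 to 102897131, minus strand, 2648 exonic bases) was counted 3151, 3824 and 4379 times in WT replicates 1, 2 and 3 and 3758, 4400 and 4924 times in Dicer1-ifKO replicates 1, 2 and 3. Scaled, this is 268, 241 and 269 CPM in WT and 244, 244 and 240.4 CPM in Dicer1-ifKO. The 3 Dicer1-ifKO libraries lay close together, and WT replicate 2 fell among them while the other WT libraries were higher. Gfap averaged 259 ± 16.2 CPM in WT and 243 ± 2.13 CPM in Dicer1-ifKO (SD, n = 3 each). The log2 fold change was -0.09 (SE 0.05, 95% interval -0.19 to 0.01) (Benjamini-Hochberg adjusted p 0.518, edgeR). Without WT replicate 2 it was -0.15, and it did not pass in any fit.

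The promoter window of Gfap is shown because the STAT proteins that act downstream of cytokines of the LIF and CNTF family are known regulators of this gene. It runs from 250 bases before to 50 bases after the start annotated by RefSeq (GRCm38.p6), which is the start of the transcript Gfap-201 in the files; Gfap-001 starts downstream of the window. Capitals mark TTCNNNGAA, the spaced palindrome read by STAT dimers, at -2 from the start.
Gfap, chr11:102897151-102897450, minus strand: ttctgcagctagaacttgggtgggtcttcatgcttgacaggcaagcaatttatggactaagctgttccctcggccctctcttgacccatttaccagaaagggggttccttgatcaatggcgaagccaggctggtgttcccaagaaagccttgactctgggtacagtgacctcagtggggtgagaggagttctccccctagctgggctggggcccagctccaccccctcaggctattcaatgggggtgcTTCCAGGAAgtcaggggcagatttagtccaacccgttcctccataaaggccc
TTCNNNGAA, searched on both strands, was found in 8.30% of 32851 mouse promoter windows of this length and in 2 of the 9 windows matched to 6 of the 7 genes, the other being a second start of Aldoc. The Gfap window holds none of the other motifs searched. Its GC content was 55.7%, beside a median of 52.7% over all windows, and it has 3 CpG dinucleotides, beside a median of 7.

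S100b (S100b-001, chromosome 10, 76253853 to 76261159, plus strand, 1484 exonic bases) is the calcium sensor of astrocytes. It was counted 922, 1159 and 1252 times in WT and 1195, 1239 and 1489 times in Dicer1-ifKO, which is 78.5, 73.0 and 77.0 CPM against 77.6, 68.8 and 72.7 CPM. Dicer1-ifKO replicate 1 lay among the WT libraries and replicate 2 was the lowest of all 6. The means were 76.1 ± 2.86 and 73.0 ± 4.41 CPM (SD, n = 3 each), and the log2 fold change was -0.06 (SE 0.06, 95% interval -0.18 to 0.06; adjusted p 0.763, edgeR). It was -0.02 if the lowest library was left out and -0.10 without Dicer1-ifKO replicate 1.

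Slc4a4 (Slc4a4-001, chromosome 5, 88886818 to 89239653, plus strand, 7931 exonic bases) carries sodium and bicarbonate together across the astrocyte membrane. Counts were 2165, 2994 and 2730 in WT and 2741, 3298 and 3543 in Dicer1-ifKO. The WT libraries spread from 168 to 188 CPM (184, 188 and 168 in replicates 1, 2 and 3) and enclosed the Dicer1-ifKO libraries at 178, 183 and 173 CPM. The means were 180.2 ± 10.9 and 178 ± 5.03 CPM (SD, n = 3 each), with a log2 fold change of -0.02 (SE 0.05, 95% interval -0.12 to 0.09; adjusted p 0.939, edgeR). The sign was not stable: the value was 0.03 when counts were summed over transcripts and 0.02 without WT replicate 2.

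S100b and Slc4a4 are the members with the most half-sites of nuclear factor I in their promoter windows. These windows are shown because Nfix, a member of that factor family, was the only gene called in the regulator list described further on. Its level was higher in Dicer1-ifKO. Capitals mark the half-site TTGGC, or GCCAA where it lies on the other strand. Slc4a4 has a distal and an internal annotated start, which give different amino termini of the transporter. The representative transcript Slc4a4-001 starts at 88886818, upstream of the distal window.
S100b, chr10:76253586-76253885, plus strand: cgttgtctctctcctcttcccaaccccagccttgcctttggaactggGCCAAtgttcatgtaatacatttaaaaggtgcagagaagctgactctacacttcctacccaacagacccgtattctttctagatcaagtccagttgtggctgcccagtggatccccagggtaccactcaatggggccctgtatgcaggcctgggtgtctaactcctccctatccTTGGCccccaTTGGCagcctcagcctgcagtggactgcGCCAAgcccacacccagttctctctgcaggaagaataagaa
Slc4a4 distal start, chr5:88887010-88887309, plus strand: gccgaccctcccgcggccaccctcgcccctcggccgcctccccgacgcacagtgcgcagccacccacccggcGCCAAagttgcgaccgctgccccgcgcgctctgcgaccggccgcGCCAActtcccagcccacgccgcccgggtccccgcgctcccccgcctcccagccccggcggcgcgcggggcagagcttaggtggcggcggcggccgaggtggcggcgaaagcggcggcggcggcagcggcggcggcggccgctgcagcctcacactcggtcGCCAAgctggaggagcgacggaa
Slc4a4 internal start, chr5:89027716-89028015, plus strand: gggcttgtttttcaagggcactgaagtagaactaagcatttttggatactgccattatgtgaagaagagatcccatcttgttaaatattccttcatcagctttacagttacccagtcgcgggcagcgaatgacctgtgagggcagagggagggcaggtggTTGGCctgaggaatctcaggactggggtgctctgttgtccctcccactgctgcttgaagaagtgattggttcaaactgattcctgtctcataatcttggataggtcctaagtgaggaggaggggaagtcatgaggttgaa
The S100b window holds 4 half-sites, the distal Slc4a4 window 3 and the internal one 1; a half-site occurs in 46.7% of all windows, since it is only 5 bases long, and in 4 of the 9 member windows. Of the 4 half-sites of S100b, 2 overlap a CCAAT box, the letters CCAAT. Both Slc4a4 starts differ in composition: the distal window is 80% GC, more than 99.1% of all windows, with 50 CpG dinucleotides, and the internal one is 48.3% GC with 3. The windows of Fgfr3 (69.7% and 73% GC), Aldh1l1 (60%) and Aldoc (56.3% and 53.3%) lie between these values. CCAAT was found in 4 and the GC box GGGCGG in 5 of the 9 windows (37.4% and 35.7% of all windows). The TATA box TATAAA, the SOX site ACAATG, the E-box CACGTG and the AP-1 site TGACTCA were in 0 of the 9, and in 13.6%, 12.6%, 7.15% and 5.20% of all windows.

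Aldh1l1 (Aldh1l1-001, chromosome 6, 90550789 to 90600203, plus strand, 4175 exonic bases), which oxidises formyl-tetrahydrofolate, was the least abundant member. It had 445, 578 and 614 counts in WT and 576, 743 and 715 in Dicer1-ifKO. In CPM these were 37.9, 36.4 and 37.8 in WT and 37.4, 41.2 and 34.9 in Dicer1-ifKO, so that the Dicer1-ifKO libraries spread on both sides of the WT libraries. The log2 fold change was 0.02 (SE 0.07, 95% interval -0.13 to 0.16; adjusted p 0.954, edgeR), from 37.3 ± 0.832 to 37.9 ± 3.19 CPM (SD, n = 3 each). Leaving out its highest library, Dicer1-ifKO replicate 2, gave -0.05, and leaving out its lowest, replicate 3 of the same genotype, gave 0.08. Of the 4512 exonic bases of all its transcripts together, 11.1% also lie in exons of Gm15756 on the opposite strand. Exons of Gm45901 on the same strand hold 2.33%. The shares within Aldh1l1-001 alone were not computed. The strand setting of the counting is not given in the sources used here. Part of the reads in the shared bases therefore cannot be assigned to Aldh1l1 with certainty.

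Aldoc (Aldoc-001, chromosome 11, 78322968 to 78327781, plus strand, 2786 exonic bases), which splits fructose bisphosphate in glycolysis, was the most abundant member. It had 5601, 7164 and 7546 counts in WT and 7098, 8199 and 9880 in Dicer1-ifKO. The 6 libraries spanned a narrow range: 477, 451 and 464 CPM in WT and 461, 455 and 482 CPM in Dicer1-ifKO. The means of 464 ± 12.9 and 466 ± 14.4 CPM (SD, n = 3 each) gave a log2 fold change of 0.01 (SE 0.04, 95% interval -0.08 to 0.10; adjusted p 0.973, edgeR). The value was -0.018 without Dicer1-ifKO replicate 3. Aldoc had the smallest SE of the 7 genes.

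Aqp4 (Aqp4-201, chromosome 18, 15389394 to 15403684, minus strand) was the member with the lowest fold change. Its counts were 1667, 2176 and 2210 in WT and 1911, 2367 and 2387 in Dicer1-ifKO. Aqp4 stood at 142, 137 and 136 CPM in WT and at 124, 131 and 116.6 CPM in Dicer1-ifKO. Every Dicer1-ifKO library was below every WT library, with Dicer1-ifKO replicate 2 nearest to them. The mean was 138 ± 3.20 CPM in WT and 124 ± 7.42 CPM in Dicer1-ifKO (SD, n = 3 each), a log2 fold change of -0.16 (SE 0.05, 95% interval -0.26 to -0.05). This is a fitted level lower by 10.3%, with a 95% interval of the change from -16.6% to -3.48%. The difference did not pass over all genes (Benjamini-Hochberg adjusted p 0.254, edgeR). Among the 6674 abundant genes, 6.70% had a fold change at least as large in either direction. The value kept its sign in all 14 alternative fits, at -0.20 to -0.11, and the smallest adjusted p among them was 0.182.

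Fgfr3 (Fgfr3-001, chromosome 5, 33721724 to 33737067, plus strand, 4218 exonic bases) was the member with the highest fold change. It had 794, 1196 and 1202 counts in WT and 1223, 1405 and 1636 in Dicer1-ifKO. The WT libraries were at 67.6, 75.3 and 73.9 CPM and the Dicer1-ifKO libraries at 79.4, 78.0 and 79.9 CPM. All Dicer1-ifKO libraries were above all WT libraries, and the lowest library was WT replicate 1, the one apart on the first principal component. The means of 72.3 ± 4.10 and 79.1 ± 0.985 CPM (SD, n = 3 each) correspond to a fitted level higher by 9.21% (95% interval 1.08% to 17.985%). The log2 fold change of 0.13 (SE 0.05) did not pass over all genes (adjusted p 0.397, edgeR). It was 0.09 without WT replicate 1, and 0.08 when transcript length was corrected for as well. Of the exonic bases of all Fgfr3 transcripts together, 13.1% lie in exons of G630022F23Rik on the opposite strand. The share within Fgfr3-001 alone was not computed.

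**Figure D2:**
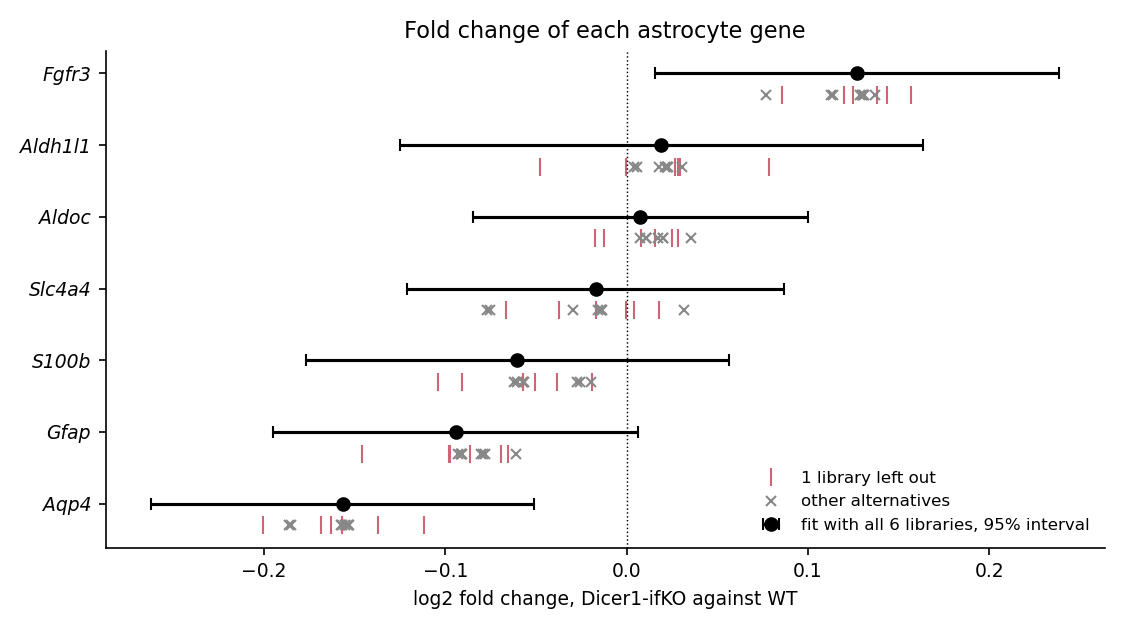
Log2 fold change of each astrocyte gene, Dicer1-ifKO against WT (horizontal axis), with the fit to all 6 libraries as black points with 95% intervals, fits with 1 library left out as red ticks and the other alternatives as grey crosses. Aqp4 (-0.16) and Fgfr3 (0.13) are the genes whose intervals do not reach 0, and the ticks of Aldh1l1, Aldoc and Slc4a4 lie on both sides of it.

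Per length of transcript, the order of the levels was the same in both genotypes. In WT, Aldoc was at 166.5 ± 4.64 CPM per kb of transcript (SD, n = 3), Gfap at 98.0 ± 6.12, S100b at 51.3 ± 1.93, Aqp4 at 27.4 ± 0.634, Slc4a4 at 22.7 ± 1.37, Fgfr3 at 17.1 ± 0.973 and Aldh1l1 at 8.94 ± 0.199. The highest level was 18.6 times the lowest. Over the 6 libraries the ranges of neighbours in this order were separate, except those of Aqp4 (23.1 to 28.1 CPM per kb) and Slc4a4 (21.2 to 23.8). Among 16060 tested genes with a known length, Aldoc ranked 303 by its level per kb in WT and Aldh1l1 ranked 7395.

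**Figure D3:**
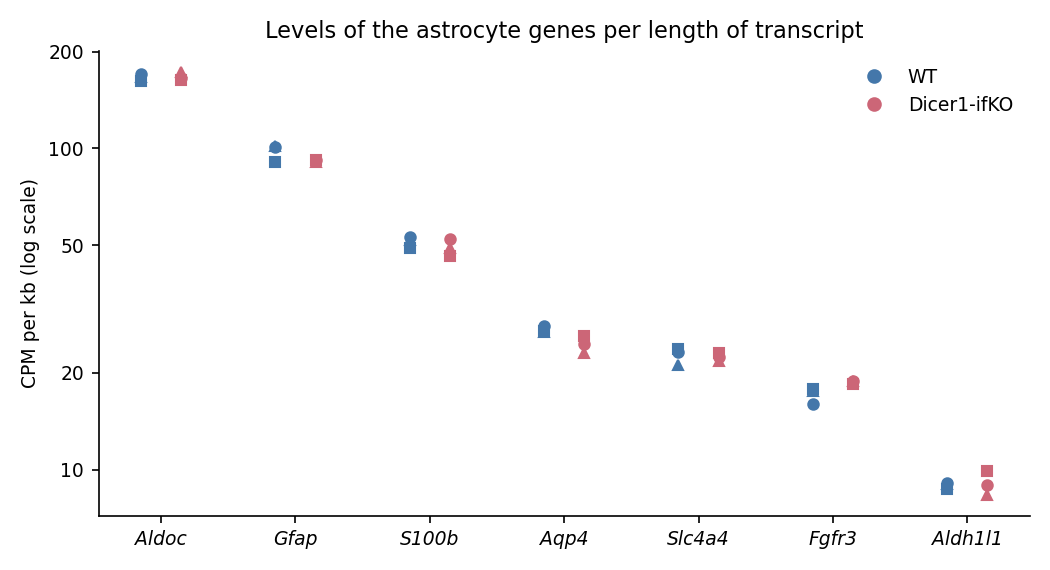
Level of each astrocyte gene per kb of its representative transcript (CPM per kb, log scale) in the 3 WT libraries (blue) and the 3 Dicer1-ifKO libraries (red), with marker shapes for replicates 1 (circle), 2 (square) and 3 (triangle). Levels fall from about 166.5 for Aldoc to 8.94 for Aldh1l1 in WT, and the genotypes lie beside each other for every gene.

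Added up, the 7 genes took 1255, 1202 and 1226 CPM in WT replicates 1, 2 and 3 and 1201, 1202 and 1200.0 CPM in Dicer1-ifKO replicates 1, 2 and 3, of which Aldoc alone made 37.5% to 40.2%. The Dicer1-ifKO sums lay together near the lowest WT library. The members did not move as a block from library to library. In WT replicate 1, 6 of the 7 were above their own mean over the libraries and Fgfr3 was below it, whereas in Dicer1-ifKO replicate 3 Fgfr3 and Aldoc were above and the other 5 below. The genes whose log2 CPM over the 6 libraries was most like the members' mean profile, out of 11908 ranked, were Glipr1 (Pearson's r 0.982), 6330527O06Rik (0.980), Ppt1 (0.979), Lipo1 (0.975) and 2310057M21Rik (0.969), none of them an astrocyte marker of the lists. Of 31 other astrocyte markers ranked, 0 were among the 77 genes with r of 0.9 or more. The points of these correlations are 6 libraries that share their depth and scaling, so they are descriptions.

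The deposited files hold 33 transcripts of the 7 genes, and 32 were tested one by one. Transcripts of a gene share reads, because reads in common exons were counted for each of them. Of the 32, 0 were called by edgeR at an adjusted p below 0.05 over all transcripts, where 47 of 60500 (0.0777%) were; 3 had an unadjusted p below 0.05 and the smallest adjusted p was 0.275, of Aqp4-201. Gfap-001, which uses the distal 3′ end, had a log2 fold change of -0.11, and Gfap-201, which ends before the last exons of Gfap-001, -0.07 (adjusted p 0.505 and 0.680, edgeR). Fgfr3-007, a short transcript, had 0.35 (SE 0.14, adjusted p 0.433, edgeR) and Slc4a4-006 had 0.43 (SE 0.21, adjusted p 0.531, edgeR).

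The counts of transcripts of the same gene were set against each other in 6 ratios, chosen after the files were seen. Because of the shared reads, a ratio gives where reads fell along the gene and does not measure how much each transcript was used. Gfap-201 had 41.8, 46.7 and 44.2 counts per 100 counts of Gfap-001 in WT and 45.6, 44.8 and 45.6 in Dicer1-ifKO, so the Dicer1-ifKO libraries lay inside the WT range (two-sided exact permutation p 0.6). Slc4a4-002, which lacks the long 3′ end of Slc4a4-001, had 46.0, 49.2 and 49.7 counts per 100 of Slc4a4-001 in WT and 51.0, 51.9 and 50.5 in Dicer1-ifKO. These groups did not overlap, and the two-sided exact permutation p was 0.1, the smallest that 3 against 3 libraries allow (0.6 adjusted over the 6 ratios). All 3494 bases of Slc4a4-002 lie within Slc4a4-001, which has 4302 bases found in no other transcript of the gene, so the ratio compares these regions of 1 transcript. WT replicate 1 had the lowest ratio. The part of this library's trend with transcript length in the ratio was not tested. Slc4a4-008, which begins downstream of the internal window shown above, had 4.93 ± 0.432 counts per 100 of Slc4a4-001 in WT and 5.19 ± 0.751 in Dicer1-ifKO (SD, n = 3; exact permutation p 0.8). For Aldh1l1-005, Fgfr3-007 and Aldoc-005 the exact permutation p was 0.7, 0.2 and 0.3.

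MicroRNAs act mainly by pairing of their seed, bases 2 to 8, with 3′ untranslated regions, which lowers the mRNA. Seeds of 15 microRNAs, chosen after the files were seen, were matched to the 3′ untranslated regions of the representative transcripts. The one most often matched among the 7 genes was that of miR-153-3p, in 6 of them. The matches of 5 of these genes are shown with 8 bases on each side, and the seed and its match are in capitals; the 1 match of Aqp4, 238 bases after its stop codon, is not printed. Mature sequences are those of RefSeq, with seeds that other microRNAs of the 15 do not share, and genome positions are GRCm38.
miR-153-3p: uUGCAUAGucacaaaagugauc
let-7a-5p: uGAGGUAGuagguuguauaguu
miR-125b-5p: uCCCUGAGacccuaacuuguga
Gfap, 426 bases after the stop codon, chr11:102888245-102888251, minus strand: ccagagacCTATGCAtcccgaat
Gfap, 508 bases after the stop codon, chr11:102888163-102888169, minus strand: ctgagcagCTATGCAggttgact
Aldh1l1, 663 bases after the stop codon, chr6:90599605-90599611, plus strand: tctgactcCTATGCActcacccg
Aldoc, 81 bases after the stop codon, chr11:78326435-78326441, plus strand: ccaaatagCTATGCAgaacagag
Slc4a4, 720 bases after the stop codon, chr5:89236190-89236196, plus strand: cccttttcCTATGCAactttttt
Slc4a4, 1281 bases after the stop codon, chr5:89236751-89236757, plus strand: tcgacatcCTATGCAgtattgtt
Slc4a4, 2749 bases after the stop codon, chr5:89238219-89238225, plus strand: gtttgtttCTATGCAaactggac
Fgfr3, 1236 bases after the stop codon, chr5:33736796-33736802, plus strand: aacacttcCTATGCAgtgcttct
The letters CTATGCA were in the 3′ untranslated regions of 8.39% of 13451 tested genes with an annotated region, and of 13.8% of the 6967 genes whose region has 1000 bases or more, as those of all 7 genes do. Gfap holds the match at 2 places and Slc4a4 at 3. S100b was the gene without it. Among the other astrocyte markers 4 of 30 had it (Slc1a2, Kcnj10, Ppp1r3c and Slc27a1). The matches of let-7a-5p (Aqp4, Aldoc, Slc4a4) and miR-125b-5p (Aldh1l1, Slc4a4, Fgfr3) were each in 3 of the 7 genes, in 9.76% and 14.3% of all genes, and in 15.4% and 22.4% of those with 1000 bases or more. S100b, with 1091 bases, had 0 matches to the 15 seeds, and Slc4a4, with 4183 bases, had the most, 8. Over all genes, the median log2 fold change was 0.013 with a miR-153-3p match and -0.0041 without one. For every one of the 15 seeds the median with a match was above that without, at 0.0072 to 0.024. This is therefore not particular to miR-153-3p. Matches were more frequent in regions of 1000 bases or more. Libraries also differed in their trend with transcript length (Spearman's rho -0.262, 0.069 and -0.116 in WT, 0.111, 0.139 and 0.085 in Dicer1-ifKO). The part of length in these medians was not tested. The 6 members with a match ranged from -0.16 (Aqp4) to 0.13 (Fgfr3), and S100b was at -0.06. A seed match is a stretch of letters and not a measured binding site, and mature microRNAs were not measured in these libraries.

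Other markers of astrocytes gave the same picture gene by gene. Of 32, 0 were called in either direction by edgeR and 2 had an unadjusted p below 0.05, beside 10.4% of all genes. On the log2 scale 19 lay above and 13 below 0, with a median of 0.01. Fabp7, a fatty acid binding protein of astrocytes and their precursors, had the smallest p, with 23.9 ± 1.40 CPM in WT and 19.9 ± 2.08 CPM in Dicer1-ifKO (SD, n = 3; log2 fold change -0.27, SE 0.09, adjusted p 0.234, edgeR). Slc1a2, the main glutamate transporter, was at 1799, 2030 and 1988 CPM in WT and at 2130, 2213 and 2050.1 CPM in Dicer1-ifKO (0.14, SE 0.05, adjusted p 0.331, edgeR). Its groups did not overlap, and as the most abundant of these markers it weighs on their summed level, which was 7887 to 8016.5 CPM in WT and 8137 to 8224.5 CPM in Dicer1-ifKO. Slc14a1, a urea transporter (-0.20, SE 0.10), and Htra1, a secreted protease (-0.10, SE 0.05), were lower in every Dicer1-ifKO library and did not pass.

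Genes that rise in reactive astrocytes showed no call in either direction. Of 26 in the list, 21 were tested by edgeR, 11 positive and 10 negative, with a median of 0.03. Among them 3 had an unadjusted p below 0.05, beside 10.4% of all genes. Lcn2, a secreted lipocalin often used to mark reactivity, was counted 2 times in all WT libraries together and 1 time in Dicer1-ifKO, too few to test. Vim, the filament partner of GFAP, had 26.2 CPM in WT and 25.6 CPM in Dicer1-ifKO (log2 fold change -0.03). Serpina3n, a protease inhibitor, had 190.2 ± 21.5 and 168 ± 10.8 CPM (SD, n = 3; -0.17, SE 0.06, adjusted p 0.322, edgeR), and WT replicate 1 was its highest library. Gbp2, an interferon-inducible GTPase, had 2.55 and 3.65 CPM (0.52, SE 0.18, adjusted p 0.283), and Psmb8, a subunit of the immunoproteasome, 1.98 and 1.33 CPM (-0.60, SE 0.25, adjusted p 0.397).

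The partners of aquaporin-4 at the endfeet, including potassium channels, the dystroglycan complex and gap junctions, had 13 positive and 4 negative values among 17 tested. Their median was 0.06, with 0 calls by edgeR and 1 gene at an unadjusted p below 0.05 (10.4% of all genes). The median was 0.028 with the correction for transcript length, 0.029 without WT replicate 2 and 0.027 without Dicer1-ifKO replicate 2. Agrn, the heparan sulfate proteoglycan agrin of the vascular basement membrane, had 217, 220.2 and 212 CPM in WT and 244, 241 and 241 CPM in Dicer1-ifKO. All Dicer1-ifKO libraries were higher (log2 fold change 0.16, SE 0.04), and the adjusted p was 0.158 in edgeR. Of the alternatives, the DESeq2 test called it. Tissue RNA does not show which cells this Agrn difference comes from. Kcnj10, the Kir4.1 potassium channel, had 0.02 (SE 0.05), and Dag1, dystroglycan, 0.11 (SE 0.06).

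For bicarbonate handling, the field of Slc4a4, 22 of 29 transporter and carbonic anhydrase genes were tested, and 0 were called by edgeR. Of the 22, 6 had an unadjusted p below 0.05, beside 10.4% of all genes. Positive values were found for 12 and negative ones for 10 (median 0.01). Car12, a membrane carbonic anhydrase, was at 43.7, 34.4 and 40.3 CPM in WT and at 48.2, 43.7 and 51.4 CPM in Dicer1-ifKO (0.28, SE 0.08, adjusted p 0.176, edgeR). It was called when the filter on low counts was dropped. Car4, another membrane-bound form, had -0.18 (SE 0.06) and Slc4a7, a related cotransporter, 0.16 (SE 0.06). The relatives Slc4a8 and Slc4a3, named after their values were seen, had 0.12 and 0.10 (SE 0.05 each). Like Slc4a7, they were higher in every Dicer1-ifKO library without passing (adjusted p of these Slc4 genes 0.312 to 0.460, edgeR). The other Slc4 genes tested in the list, Slc4a10 (0.07), Slc4a2 (-0.01) and Slc4a11 (-0.26), overlapped between the genotypes. In the list, 5 genes were higher and 1 lower in every Dicer1-ifKO library (7.99% and 8.07% of all genes).

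Around Fgfr3, 34 of 37 measured genes of the FGF pathway were tested and 0 were called by edgeR. Of the 34, 3 had an unadjusted p below 0.05 (10.4% of all genes), and 14 were positive and 20 negative (median -0.01). Among the receptors, Fgfr1 had 0.01 (SE 0.05) and Fgfr2 0.01 (SE 0.04). The ligand gene Fgf10 had -0.22 (SE 0.09). Of the feedback inhibitors that FGF signalling is known to induce, Spry1 had -0.29 (SE 0.14) and Dusp6 -0.14 (SE 0.07), while the adaptor Frs2 had 0.12 (SE 0.06); the adjusted p of Fgf10, Spry1, Dusp6 and Frs2 lay between 0.403 and 0.499 in edgeR. The other Spry and Spred genes tested ranged from -0.11 (Spry4) to 0.06 (Spred3). Of 24 tested genes of folate one-carbon metabolism, 0 were called by edgeR and 2 had an unadjusted p below 0.05 (10.4% of all genes). Among the 24, 11 were positive and 13 negative (median -0.03). Shmt2, the mitochondrial serine hydroxymethyltransferase, was lower in all 3 Dicer1-ifKO libraries, at 17.6 ± 1.73 against 14.2 ± 0.479 CPM (SD, n = 3; -0.30, SE 0.09, adjusted p 0.218, edgeR).

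The S100, intermediate filament and aldolase families, to which S100b, Gfap and Aldoc belong, had 0 calls by edgeR, and 0 with an unadjusted p below 0.05. In the S100 list 8 of 15 were tested (median 0.06, S100a1 -0.10, S100a16 0.10). The 8 include S100pbp (0.03), which encodes a binding partner of an S100 protein and not a member of the family. In the intermediate filament family 12 of 14 were tested (median -0.02). The neurofilament genes Nefl and Nefm had -0.07 and -0.06 (SE 0.04 each). Of the aldolases, Aldoa, the form of most cells, had 871 CPM per kb in WT against 166.5 for Aldoc, and a log2 fold change of -0.03 (SE 0.05).

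Nfix, which encodes nuclear factor I X, a transcription factor used in the switch of neural stem cells to glia, rose in Dicer1-ifKO. It is also expressed by neurons. Nfix was at 185, 184 and 200.7 CPM in the WT libraries and at 234, 227 and 239 CPM in the Dicer1-ifKO libraries, without overlap. Its log2 fold change of 0.30 (SE 0.05) passed the edgeR test at a Benjamini-Hochberg adjusted p of 0.00559. It was the 1 call among 27 tested regulators of astrocyte fate (0 were called lower), beside 0.161% of all genes. Of the 27, 17 were positive and 10 negative with a median of 0.05, beside 49.0% positive over all genes. Nfix was not called without Dicer1-ifKO replicate 1 (adjusted p 0.106), with counts summed over transcripts (0.0784), or with WT replicate 1 left out and length corrected for (0.0539, edgeR). In these fits its log2 fold change was 0.30, 0.31 and 0.26. Its exons share 1.86% of their bases with G430095P16Rik on the opposite strand.

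Other regulators of the list did not pass. Nfia, the related factor that starts gliogenesis, had 42.0 ± 0.877 CPM in WT and 48.6 ± 2.13 CPM in Dicer1-ifKO (SD, n = 3; 0.21, SE 0.06, adjusted p 0.189, edgeR), and Nfib had -0.01 (SE 0.05). Notch1, a receptor that keeps the astrocyte state, had 0.17 (SE 0.07), Il6st, the shared receptor subunit of the cytokines that act through STAT3, 0.15 (SE 0.06), and Stat3 itself 0.11 (SE 0.06). Sox9 had -0.01 (SE 0.09). In 8 of the 27 all Dicer1-ifKO libraries were above all WT libraries (7.99% of all genes) and in 0 below (8.07% of all genes). An unadjusted p below 0.05 was found for 6, all of them higher, beside 10.4% of all genes in either direction. The median was 0.018 with the correction for transcript length, against 0.05 without it.

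**Figure D4:**
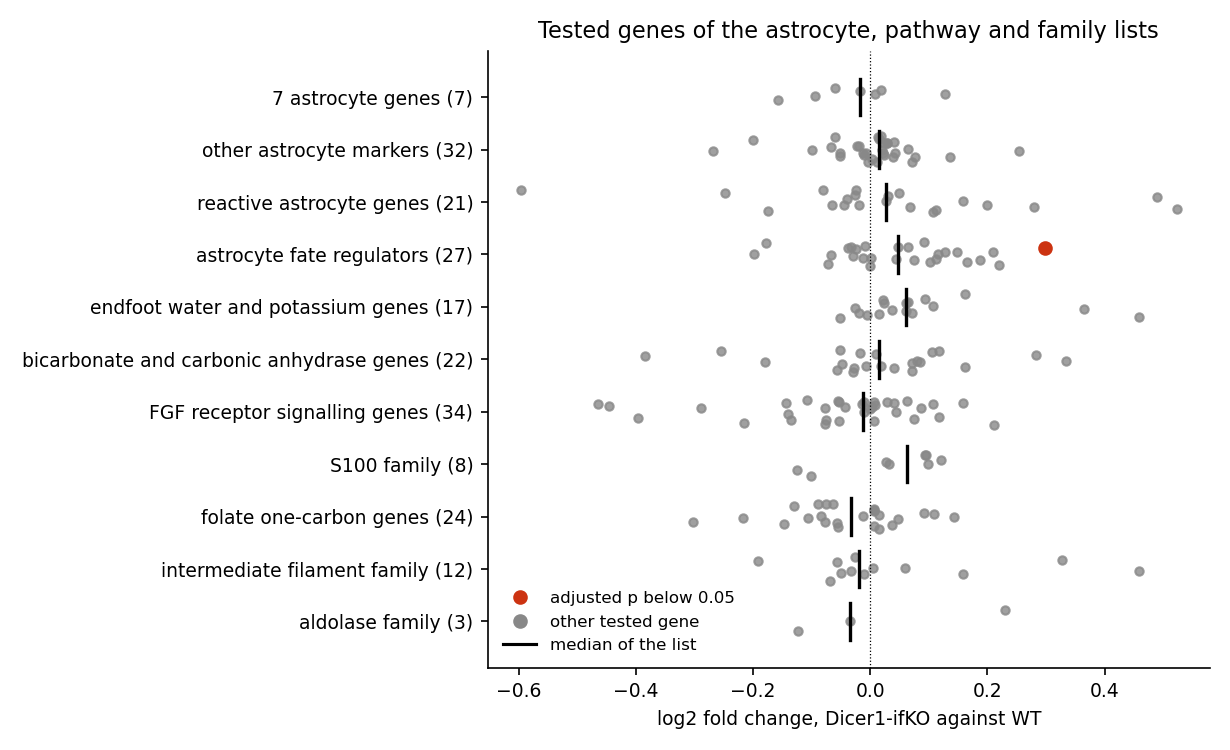
Log2 fold change, Dicer1-ifKO against WT (horizontal axis), of every tested gene in the list of 7 astrocyte genes and in 10 lists of astrocyte, pathway and family genes (rows, number tested in brackets); grey points are single genes, black lines the list medians and the red point a gene at an adjusted p below 0.05. The red point is Nfix at 0.30, and the medians lie between -0.03 and 0.06.

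Markers of the cells that surround astrocytes did not pass either, with 0 called by edgeR in each list. An unadjusted p below 0.05 was found for 2 excitatory neuron, 2 inhibitory neuron, 3 microglia and 2 neural stem cell markers. In the other lists 0 genes had one, and over all genes the share was 10.4%. The DESeq2 test called Agrn and Nfix and no other gene of all these lists. The median log2 fold change was 0.01 over 16 excitatory neuron markers, 0.03 over 14 inhibitory neuron markers, -0.03 over 12 oligodendrocyte markers, -0.02 over 9 markers of their precursors, -0.07 over 14 microglia markers, 0.05 over 11 endothelial markers, 0.04 over 8 mural cell markers, -0.13 over 7 tested choroid plexus and ependymal markers and 0.05 over 10 tested neural stem cell markers. Some of these medians changed sign with 1 library left out: that of the oligodendrocyte markers ran from -0.11 (without WT replicate 2) to 0.049 (without Dicer1-ifKO replicate 3), and that of the choroid plexus and ependymal markers from -0.24 (without WT replicate 3) to 0.010 (without WT replicate 1). The excitatory neuron markers, 11 positive and 5 negative, summed to 10586 to 10756 CPM in WT and 10664 to 11323 CPM in Dicer1-ifKO. Camk2a, the most abundant of them, had 3330 CPM in WT and 3583 CPM in Dicer1-ifKO (log2 fold change 0.11, SE 0.05, adjusted p 0.420, edgeR). It was higher in every Dicer1-ifKO library. Some genes of this list, such as Snap25 and Syt1, are not confined to excitatory neurons. The sum is therefore not particular to the cells the transgene is aimed at. Ttr, the transthyretin of choroid plexus, ranged from 9.57 to 21.95 CPM in WT and from 2.30 to 18.4 CPM in Dicer1-ifKO. It was lowest in Dicer1-ifKO replicate 3, the library with the lowest Aqp4. Within Dicer1-ifKO the libraries had the same order for Ttr and Aqp4. In WT they did not, and WT replicate 3 had the highest Ttr and the lowest Aqp4 of that genotype. The part of Ttr in the Aqp4 value was not tested.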

How the data were processed

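Hippocampal mRNA was sequenced in 3 WT and 3 Dicer1-ifKO libraries of 3 pooled mice each (9 mice per genotype, where the design text states 12), with TRI reagent, DNase and a stranded mRNA kit, per the labels' protocols. Per the submitters' processing notes, the tools were TopHat2 2.0.6 with Bowtie2 2.0.5, CASAVA 1.8.2, SAMtools 0.1.18 and DESeq2, and the builds GRCm38 and mm10; which program counted the reads, on which annotation and with which strand setting, is not given in the sources used. Each deposited file lists 76938 transcripts with raw counts, whole reads per transcript per the file headers. The normalised counts that were deposited beside them (unit signal), each a raw count over a library's own factor, were not tested.

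Each symbol stands for its transcript with the most counts on average. Groups were compared with the quasi-likelihood F-test of edgeR 4.0.16 (R 4.3.3; TMM, filterByExpr with a minimum count of 10, prior count 0.125, only genotype in the model) at a Benjamini-Hochberg adjusted p of 0.05 over 17405 genes. SE was derived from log2 fold change and F, and 95% intervals from SE and the fit's degrees of freedom. Replicates are stated to be biological; chi-square per degree of freedom within a genotype was 1.75 to 4.35, so no pair agreed within sampling noise. Lengths and 3′ untranslated regions are from GENCODE M21, whose coordinates were identical for 84.2% of transcripts (the nearest match was used for Aqp4), and promoters and mature microRNAs from RefSeq. The steps were tested on counts simulated with a single dispersion for all genes and no outlying library, unlike these data. There edgeR recovered 51.2% of genes changed 1.25-fold, 78.8% of those changed 1.5-fold and 93.6% of those changed 2-fold. Of its calls, 6.04% were false.

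The members, lists and tests were chosen with earlier results of these data known; microRNAs, motifs and transcript ratios were chosen after the files were seen. The text names all 7 members, up to 4 genes with the smallest p and any called gene per list, the 5 genes most like the members' mean profile (mean log2 CPM of 3 or more), and genes that check the tissue. A few others (Kcnj10, Vim, Lcn2, Fgfr1, Fgfr2, Nfib, Stat3, Sox9, Slc4a2, Slc4a3, Slc4a8, Slc4a10, Slc4a11, Spry4, Spred3, S100pbp, Gad2, Snap25) were named for their role after their values were seen. Alternatives were DESeq2 1.42.0 (size factors or test), no filter, summed transcripts, a length offset, a replicate block, each library left out, and, added after seeing the data, WT replicate 1 left out with the length offset.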

Additional observations from a re-analysis of the deposited data

How the results depend on the processing

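With 3 libraries per genotype, the SE of the members' log2 fold changes was 0.04 to 0.07, and Aqp4 at -0.16 did not pass over all genes, so a difference of that size can go uncalled at this depth and spread. In all settings 0 members were called (DESeq2 gave no adjusted p for Aldh1l1), and 0 of their transcripts in the settings run for transcripts. Gfap (-0.15 to -0.06), Aqp4 (-0.20 to -0.11), S100b and Fgfr3 (0.08 to 0.16) kept their direction in all 14 alternatives. Summing over transcripts gave Slc4a4 0.031. Leaving out 1 library each gave Aldh1l1 -0.048 to 0.078, Aldoc -0.018 to 0.028 and Slc4a4 -0.067 to 0.018. The members' median (-0.02) was 0.017 with summed transcripts and -0.051 to -0.00019 with 1 library left out.

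Over all genes, 28 calls became 55 with the DESeq2 test, 151 without the filter, 7 with summed transcripts, 16 with the replicate block and length offset, 14 without WT replicate 1 and with the length offset, and 6 to 105 with 1 library left out (WT replicate 1 left out, 18; WT replicate 2, 105; WT replicate 3, 14; Dicer1-ifKO replicate 1, 6; Dicer1-ifKO replicate 2, 18); the cause was not tested. The single call in the pathway and family lists, Nfix, was 0 to 1 with 1 library left out, lost without Dicer1-ifKO replicate 1, and 0 calls without WT replicate 1 with the length offset. The replicate numbers are not stated to pair the libraries. Deviations of same-numbered libraries correlated at -0.07, 0.14 and -0.14, and not every library correlated best with its own number. These deviations are centred within groups of 3 libraries, so weak correlations cannot exclude pairing. With a replicate block 22 genes and 0 members were called. The median changed sign in 12 of 20 gene lists when 1 library was left out.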

Other observations

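Of 12 oligodendrocyte markers 10 had a negative log2 fold change and 0 were called by edgeR (0 at an unadjusted p below 0.05). The direction rests on single libraries: the list's median of -0.03 was 0.049 without Dicer1-ifKO replicate 3, 0.038 without WT replicate 3 and -0.11 without WT replicate 2. The values lay between -0.07 and 0.01, and Mal, a myelin proteolipid, had -0.07 (SE 0.06). Among microglia markers, Tmem119 had 10.1 ± 0.725 CPM in WT and 8.48 ± 0.329 CPM in Dicer1-ifKO (SD, n = 3) and was lower in all 3 Dicer1-ifKO libraries, whereas Itgam, the integrin CD11b, was higher in all 3 (20.5 ± 1.71 and 23.3 ± 0.771 CPM). Their adjusted p was 0.460 and 0.456 (edgeR, Benjamini-Hochberg).

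Of 14 inhibitory neuron markers 8 had a positive and 6 a negative value. Calb2, the calcium-binding protein calretinin, had 29.8 ± 3.56 and 24.6 ± 2.92 CPM (SD, n = 3; log2 fold change -0.26, SE 0.09) and Vip, the interneuron peptide, -0.23 (SE 0.11), with overlapping groups, whereas Dlx1, a homeobox gene, and Gad2, a GABA-synthesising enzyme, had 0.13 (SE 0.07) and 0.07 (SE 0.05) and were higher in every Dicer1-ifKO library. Dcx, the doublecortin of young granule neurons, was higher in every Dicer1-ifKO library, at 22.04 ± 0.799 against 25.0 ± 2.46 CPM (0.18, SE 0.08, adjusted p 0.460, edgeR).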
